A study of Mus musculus with 11 samples.

Results

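Receptor tyrosine kinases sit in the cell membrane, bind growth factors outside the cell and, once paired, phosphorylate themselves and dock the proteins that start PI3K and RAS signalling. PI3K is the enzyme whose catalytic subunit Pik3ca encodes, so these receptors lie directly upstream of the mutant protein of this model. ERBB2 is amplified in a well-known class of human breast cancer, FGFR1 is amplified in another set of breast tumours, and MET, the receptor of hepatocyte growth factor, was amplified in several of the mouse tumours described here.

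The copy number of 9 receptor tyrosine kinase genes other than Met was read in 11 mouse mammary tumours. The genes were Egfr, Erbb2, Erbb3, Erbb4, Fgfr1, Fgfr2, Igf1r, Kit and Pdgfra, and every probe that the array annotation gave to them was used, 189 probes in all. All 9 were found among the 20709 gene names that the array places on 1 chromosome. Each tumour (tumours 1 to 11, 1 per animal) came from a mouse of strain Mixed FVBN/Bl6 carrying the activated Pik3ca H1047R mutant, and its DNA was compared on the array with DNA from the liver of that mouse. The livers carry the same genotype, so the ratio shows what the tumour gained or lost and not what the strain or the mutation brought. The promoter or Cre line behind the mutant, and the age of the mice, are not given in the sources used here. The DNA came from whole tumour tissue, and its share of tumour cells was not measured, so a log2 ratio cannot be turned into a number of copies.

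The values are log2 ratios of tumour over liver with the median of each array set to 0, and a gene's value is the mean over its probes. The noise between neighbouring probes had an SD of 0.553 in tumour 9, 0.512 in tumour 11 and at most 0.275 in the others, with the lowest SD, 0.131, in tumour 8. The arrays lie on 3 slides, and tumours 4, 7, 9 and 11 shared slide 2. The arrays of slide 2 were also the only ones read with version 11.0.1.1 of the scanner software. Slide 2 and that version therefore cannot be told apart. Over the autosomal probes tumour 11 correlated at -0.65 with tumour 9, -0.61 with tumour 5, -0.60 with tumour 4 and -0.32 with tumour 10. The direction of its ratios is therefore not settled, although the labels give it the same dyes as the others. Single values of tumour 11 are printed in the labelled direction and would change sign if turned. Means, ranges and separations that hinge on it are also given with its sign turned. Positions are those of mouse build mm9, from the first to the last probe of a gene. Exons and introns were not used here.

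The genes differ in how well the array covers them. Erbb4 spans chr1:68090669-69152044 with 108 probes, Igf1r chr7:75103700-75372577 with 30, Egfr chr11:16656658-16813188 with 17 and Fgfr2 chr7:137307287-137407123 with 11. Kit (chr5:75981317-76051999) has 8 probes, Pdgfra (chr5:75548298-75589956) has 6, Fgfr1 (chr8:26637492-26673714) has 4, Erbb3 (chr10:128010082-128025610) has 3 and Erbb2 (chr11:98278506-98287973) has 2. The small genes therefore rest on few oligonucleotides, and the probes behind their values are shown here. Erbb2, the receptor without a known ligand that acts as a partner of the other family members, was measured by the following pair of probes alone, at chr11:98278506-98278565 and chr11:98287914-98287973, printed as on the array:

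Erbb2 probe A: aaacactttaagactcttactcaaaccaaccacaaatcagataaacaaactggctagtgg
Erbb2 probe B: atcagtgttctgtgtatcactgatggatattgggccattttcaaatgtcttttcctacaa

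Erbb3, a receptor with a weak kinase that docks PI3K when paired with Erbb2, was measured by the next 3 probes, at chr10:128010082-128010141, chr10:128017497-128017556 and chr10:128025552-128025610. Probe A carries most of the scatter between tumours described further on:

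Erbb3 probe A: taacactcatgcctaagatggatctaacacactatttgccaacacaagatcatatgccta
Erbb3 probe B: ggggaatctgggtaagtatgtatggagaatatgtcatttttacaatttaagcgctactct
Erbb3 probe C: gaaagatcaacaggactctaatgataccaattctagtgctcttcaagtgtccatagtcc

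The main result is that none of the 9 receptors was amplified to a height near that of Met. A segment, a run of neighbouring probes with 1 common mean, was called a gain or loss when it held 10 or more probes and its mean was at least 0.2 away from 0. The 9 genes in 11 tumours give 99 gene and tumour pairs, of which 5 lay inside a gain and 9 inside a loss. Over all genes, 6.28% of such pairs lay inside a gain and 6.87% inside a loss, 13.2% together, and the 14 called pairs here are close to that share. The highest segment mean over any of the 9 genes was 0.36, and the lowest was -0.37. The segments over Met reached 5.37 in tumour 8, 3.48 in tumour 6, 3.00 in tumour 3 and 2.03 in tumour 7. A change was called focal if its segment was no longer than 10 Mb and reached 0.6 in either direction, and no receptor of the 9 lay in such a segment. The share of all genes in focal segments is not given here, so this absence describes the 9 genes and does not set them apart from other genes. The number of gains rests on few tumours and was 3 without tumour 2.

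**Figure D1:**
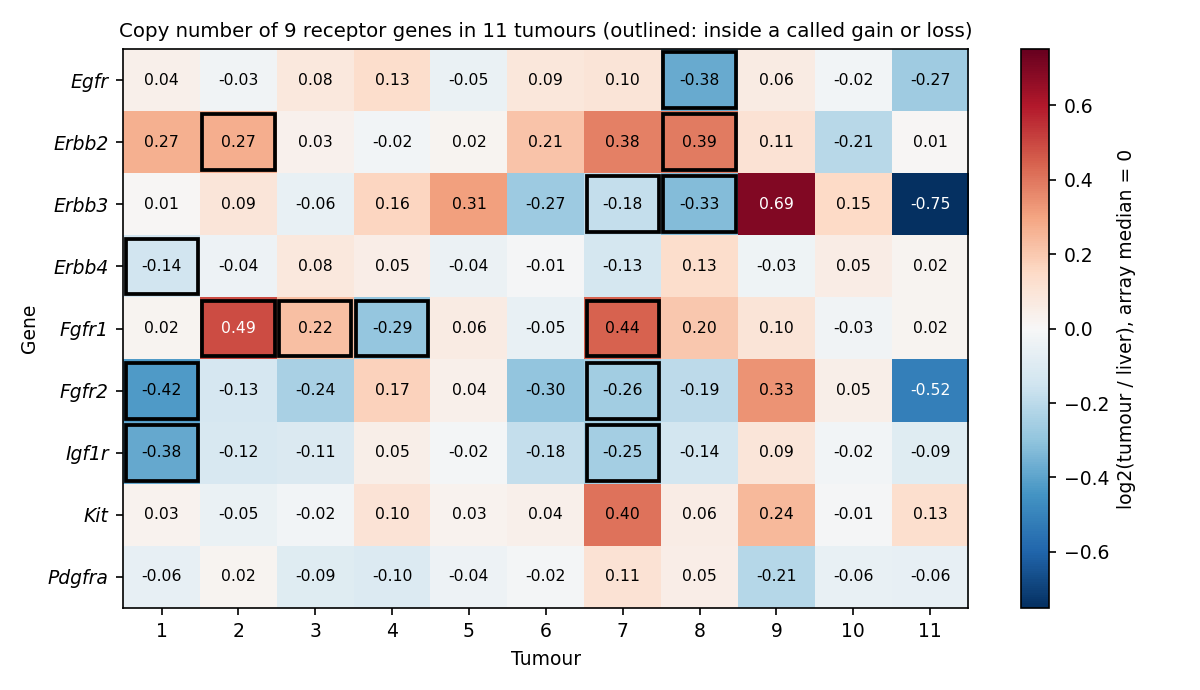
Log2 ratio of tumour over liver (colour and printed value) for the 9 receptor genes (rows) in tumours 1 to 11 (columns), with pairs inside a called gain or loss outlined in black. The 14 outlined pairs lie in tumours 1, 2, 3, 4, 7 and 8, and the most extreme colours, those of Erbb3 in tumours 9 and 11, are not outlined.

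The calls were spread unevenly over the tumours. Tumour 7 had 4 of the 9 genes inside calls, namely a gain of Fgfr1 and losses of Erbb3, Fgfr2 and Igf1r, beside 26.6% of all genes lost and 5.73% gained in that tumour. Tumour 1 had losses at Erbb4, Fgfr2 and Igf1r, beside 21.0% of all genes lost. Tumour 8 had losses at Egfr and Erbb3 and a gain at Erbb2, beside 20.8% of all genes lost and 14.9% gained. Tumour 2 had gains at Erbb2 and Fgfr1, beside 20.2% of all genes gained. Tumour 3 had a gain at Fgfr1 and tumour 4 a loss at Fgfr1, beside 9.64% of all genes gained in tumour 3 and 3.07% lost in tumour 4. No receptor lay inside a call in tumours 5, 6, 9, 10 and 11. In tumours 9 and 10 no gene of the array did (0.0% gained and 0.0% lost). The shares of all genes gained and lost were 0.0% and 1.97% in tumour 5. They were 8.58% and 0.275% in tumour 6, and 0.357% and 0.0773% in tumour 11. The absence of called receptors in these tumours was thus near the shares of all genes.

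Tests over the 11 tumours called none of the receptors. Of the 8 genes with at least 3 probes, limma called 0 different from liver (adjusted p under 0.05 with a mean of 0.1 or more in either direction), while it called 6.89% of all 9305 genes tested. At an unadjusted p below 0.05 stood 1 of the 8, Igf1r, beside 23.0% of all genes. Measured against the probes within 5 Mb on both sides of each gene, limma again called 0 of the 8, while it called 0.602% of all genes. An exact sign-flip permutation test called no gene of the 9305 (0.0%) in either comparison, and its smallest possible p with 11 tumours is 0.000977 before adjustment, so with this many genes the adjusted test has little reach. The median of the 8 means was -0.02, and the median over all genes tested was -0.01.

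**Figure D2:**
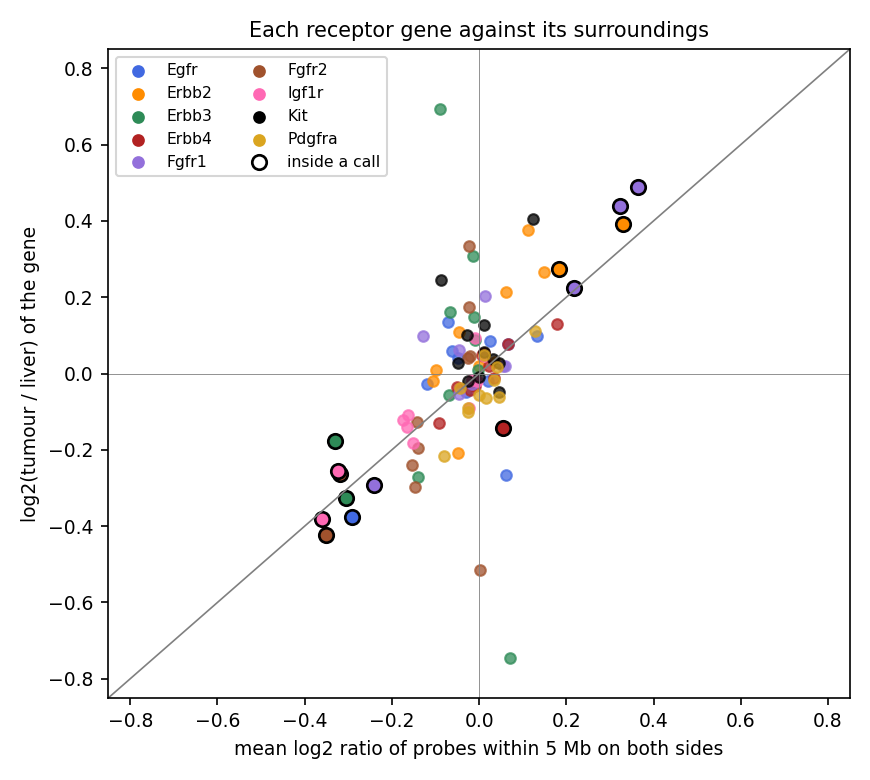
Log2 ratio of each receptor gene in each tumour (vertical axis) against the mean log2 ratio of the probes within 5 Mb on both sides (horizontal axis), with the diagonal marking equal values and black rings marking pairs inside a called segment. The ringed points farthest off the diagonal are Erbb4 in tumour 1 (-0.20 against its flanks) and Erbb3 in tumour 7 (0.15). Of all points, the 4 farthest off it are those of Erbb3 and Fgfr2 in tumours 9 and 11.

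Egfr, the receptor of EGF, TGF-alpha and amphiregulin, stood near 0 in most tumours. Its value was -0.38 in tumour 8, -0.27 in tumour 11 and between -0.05 and 0.13 in the other 9. Tumour 8 is the only one in which a called segment covered the gene, a loss of -0.29 over the first 26.4 Mb of chromosome 11, and against its flanks Egfr stood only 0.08 lower there (-0.08). In tumour 11 the flanks were at 0.06 and no call was made, so the gene stood at -0.33 against them. The mean over the tumours was -0.02 (SD 0.16, n = 11), with a 95% interval from -0.12 to 0.08 and an adjusted limma p of 0.828. The sign of this mean depends on single arrays, since it was 0.01 without tumour 8, 0.0022 without tumour 11 and 0.03 with tumour 11 turned.

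Erbb2 lies 81.5 Mb further along the same chromosome and behaved differently. Its values were 0.39 in tumour 8, 0.38 in tumour 7, 0.27 in tumours 1 and 2, 0.21 in tumour 6, 0.11 in tumour 9, between -0.02 and 0.03 in tumours 3, 4, 5 and 11, and -0.21 in tumour 10. In tumour 8 the gain of 0.33 spanned 41.7 Mb and stopped 2.42 Mb before the last probe of chromosome 11, so that this tumour had lost the stretch with Egfr and gained the stretch with Erbb2 on the same chromosome. In tumour 2 the gain of 0.24 spanned 4.52 Mb. In tumour 1 the segment over Erbb2 had a mean of 0.19 over 8.12 Mb, just under the threshold, and in tumour 7 it had 0.14. The value of 0.38 in tumour 7 was 0.27 above its flanks, the largest such gap of Erbb2 in any tumour, and it rests on probe A at 0.44 and probe B at 0.31.

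Over all tumours Erbb2 averaged 0.13 (SD 0.19, n = 11) and lay above 0 in 9 of 11 tumours, with a 95% interval from 0.02 to 0.25. It falls below the minimum of 3 probes and was tested in a fit of the 12796 genes with at least 2 probes, where the adjusted limma p was 0.155 and 6.11% of genes were called. The exact sign-flip permutation p, not adjusted, was 0.0371 (adjusted over all genes 0.192), or 0.0410 with tumour 11 turned. Against its flanks the mean was 0.08 (adjusted limma p = 0.232). The probes disagreed most on the noisy arrays of tumours 9 and 11, where probe A read 0.59 in tumour 9 and -0.48 in tumour 11, and probe B read -0.37 and 0.50. They also had opposite signs in tumours 3, 4 and 5. Of 9 genes listed for the amplified region of human breast cancer around Erbb2, itself included, 4 have probes, and Stard3, Grb7 and Ikzf3 lay inside the same gains in tumours 2 and 8 and inside no other call.

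Erbb3 had the widest spread of the 9 genes. Its values were 0.69 in tumour 9, 0.31 in tumour 5, 0.16 in tumour 4, 0.15 in tumour 10, between -0.06 and 0.09 in tumours 1, 2 and 3, -0.18 in tumour 7, -0.27 in tumour 6, -0.33 in tumour 8 and -0.75 in tumour 11. Calls covered it in tumour 8, a loss of -0.30 over the last 50.9 Mb of chromosome 10, and in tumour 7, a loss of -0.32 over 108 Mb. All 3 probes lay between -0.34 and -0.32 in tumour 8. In tumour 9 they read 1.45, 0.12 and 0.51 and in tumour 11 -1.39, -0.02 and -0.83, in the order A, B, C, while the flanks stood at -0.09 and 0.07.

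The extremes of Erbb3 in tumours 9 and 11 were set beside a pattern that many probes share on several arrays. The pattern, the first principal component of the residuals around the segments, had loadings of 0.67 in tumour 9, -0.57 in tumour 11, 0.32 in tumour 4 and 0.26 in tumour 5. It took up 88.6% of the residual variance of tumour 9 and 72.03% of that of tumour 11. The pattern was taken from these same values, the probes of the receptors included. A gene high in tumour 9 and low in tumour 11 therefore scores high on it by construction. Subtracting it draws such values towards their segment means. Neither the percentile nor the subtracted values below are an independent check. The residuals of tumour 11 correlated at -0.65 with those of tumour 9, -0.63 with tumour 5, -0.61 with tumour 4 and 0.37 with tumour 6. These are near the correlations over the autosomal probes given above. Erbb3 lay at the 96.3rd percentile of all genes for this pattern, and its probes had a mean GC content of 38.6% against 36.7% over all probes (SD 1.92). A fit of the probe values on GC content had an R2 of 0.021 in tumour 9 and 0.014 in tumour 11. With that fit removed the mean of Erbb3 was -0.03. The part of GC content in the pattern was not tested. With the pattern subtracted, a step chosen after seeing the data, Erbb3 read -0.05 in tumour 9, -0.09 in tumour 11, -0.19 in tumour 4, 0.02 in tumour 5, -0.37 in tumour 8 and -0.39 in tumour 7. The mean of Erbb3 was -0.02 (SD 0.37, n = 11; adjusted limma p = 0.943), -0.12 with the pattern subtracted (adjusted limma p = 0.0680) and 0.12 with tumour 11 turned (adjusted limma p = 0.354). A change of this gene over the tumours as a whole was therefore not detectable, and its direction differed between these readings.

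Erbb4, a neuregulin receptor needed for the lactational differentiation of the mammary gland, was the best covered gene and the one with an internal change. In tumour 1 a segment of 50 of its 108 probes (46.3%), chr1:68255607-68763503, averaged -0.33 (SD 0.19 over its probes). Of these 50 probes 47 lay below 0. The 16 probes on the low-coordinate side had a mean of -0.05 (SD 0.19), and the 42 probes on the high-coordinate side a mean of 0.04 (SD 0.14). The loss thus began 165 kb after the first probe of the gene, ended 389 kb before the last and spanned 0.508 Mb. Its depth was close to that of the long chromosome 7 losses of the same tumour (-0.37 and -0.35). The probes on each side of both borders are these, in order along the chromosome (starts 68242679, 68255607, 68763444 and 68772092), with the lost ones named as inside:

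Erbb4 last before: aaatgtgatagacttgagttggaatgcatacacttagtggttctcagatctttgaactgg
Erbb4 first inside: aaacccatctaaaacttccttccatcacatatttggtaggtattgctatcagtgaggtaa
Erbb4 last inside: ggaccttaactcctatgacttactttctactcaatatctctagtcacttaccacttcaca
Erbb4 first after: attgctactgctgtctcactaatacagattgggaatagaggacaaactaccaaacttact

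In tumour 1 these 4 probes read 0.08, -0.16, -0.28 and -0.04. The same borders came out with normexp background correction (-0.41), with the mode as the centre (-0.38), in the authors' value table (-0.33) and at a higher segmentation penalty (-0.33), and a lower penalty gave a segment of 47 probes (-0.34). The shared probe pattern took up 0.0196% of the residual variance of tumour 1. The inside probes stood 0.34 below the rest of the gene in tumour 1 (a difference of -0.34). In tumours 2 to 10 this difference lay between -0.03 in tumour 8 and 0.06 in tumour 5, and in tumour 11 it was -0.13, or 0.13 if turned. No other tumour had a call at Erbb4.

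**Figure D3:**
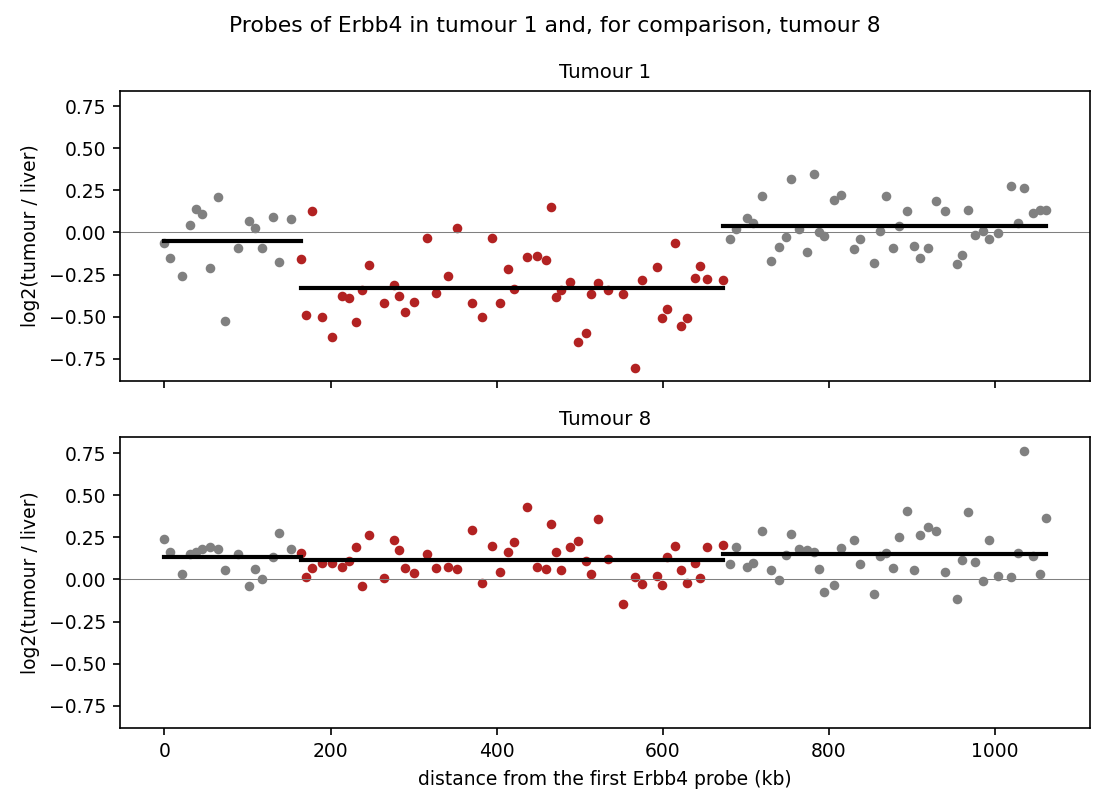
Log2 ratio of tumour over liver of the 108 Erbb4 probes by distance from the first probe in kb, in tumour 1 (top) and tumour 8 (bottom), with probes of the tumour 1 segment in red and black lines at the means before, inside and after it. In tumour 1 the red probes lie around -0.33 and the grey ones around 0, while in tumour 8 all 3 lines lie between 0.11 and 0.15.

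Changes that begin and end within a gene were few. Of 311 called segments over all tumours, 16 lay inside the probes of a single gene, 10 of them losses, and 4 of the 16 were in tumour 1. Among the losses were parts of Wwox in tumour 1 (-0.43, 0.116 Mb) and of Park2 in tumour 8 (-0.23, 0.389 Mb), both long genes at common fragile sites. Those 2 names were picked after their values were seen. Apart from Erbb4, the other losses lay in ENSMUST00000109714 (tumours 1 and 8), Asb3 (tumour 2), AK138971 (tumour 6), Rapgef5 (tumour 7), Skint6 (tumour 8) and Dmd (tumour 10). As a whole gene, Erbb4 was lowest in tumours 1 (-0.14) and 7 (-0.13) and highest in tumour 8 (0.13), with a median of -0.01. Its mean was -0.0058 (SD 0.08, n = 11), with a 95% interval from -0.08 to 0.07 and an adjusted limma p of 0.941. This is the narrowest SD of the 9 genes, on the most probes.

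Fgfr1, an FGF receptor, was inside calls in more tumours than any other of the 9. Its values were 0.49 in tumour 2, 0.44 in tumour 7, 0.22 in tumour 3, 0.20 in tumour 8, 0.10 in tumour 9, between -0.05 and 0.06 in tumours 1, 5, 6, 10 and 11, and -0.29 in tumour 4. The gains were long, with a mean of 0.36 over 54.4 Mb in tumour 2, 0.31 over 129 Mb in tumour 7 and 0.23 over 81.8 Mb in tumour 3. The loss in tumour 4 had a mean of -0.24 over 26.3 Mb, so the gene was gained in 3 tumours and lost in 1. In tumour 2 many spots had a deposited log ratio of 0. Leaving them out moved Fgfr1 only by the change of the array median (0.49 in both readings), so this does not test its value. Without those spots Egfr in tumour 2 read -0.08 instead of -0.03, and Fgfr2 read -0.23 instead of -0.13. Against its flanks Fgfr1 stood 0.12 higher in tumours 2 and 7, 0.0054 higher in tumour 3 and 0.05 lower in tumour 4 (-0.05).

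Fgfr1 averaged 0.11 (SD 0.22, n = 11) and lay above 0 in 8 of 11 tumours, with a 95% interval from -0.02 to 0.24 and an adjusted limma p of 0.306. The slides differed, with means of 0.31 on slide 1, 0.07 on slide 2 and 5.55e-05 on slide 3. With slide as a random block the adjusted limma p was 0.20. Of 16 genes listed around Fgfr1, itself included, 14 have probes, and each of the 14 lay inside the same gains in tumours 2, 3 and 7 and the same loss in tumour 4. That gave 42 gained and 14 lost of 154 pairs, so the calls did not single Fgfr1 out among its neighbours.

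Fgfr2, a receptor used by mammary epithelium for ductal growth, and Igf1r, the receptor of insulin-like growth factors, lie 61.9 Mb apart on chromosome 7 and read below 0 in most tumours. Fgfr2 had values of -0.52 in tumour 11, -0.42 in tumour 1, -0.30 in tumour 6, -0.26 in tumour 7, -0.24 in tumour 3, -0.19 in tumour 8, -0.13 in tumour 2, 0.04 and 0.05 in tumours 5 and 10, 0.17 in tumour 4 and 0.33 in tumour 9. Igf1r had -0.38 in tumour 1, -0.25 in tumour 7, -0.18 in tumour 6, -0.14 in tumour 8, -0.12 in tumour 2, -0.11 in tumour 3, -0.09 in tumour 11, -0.02 in tumours 5 and 10, 0.05 in tumour 4 and 0.09 in tumour 9. Tumours 1 and 7 are the lowest for Igf1r and the only ones where calls covered either gene. Their values over the 11 tumours correlated at r = 0.80, or 0.91 with the shared probe pattern subtracted, which describes 2 genes of the same chromosome and arrays.

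In tumour 7 both genes lay in 1 loss of -0.33 over 96.0 Mb. In tumour 1 they lay in separate losses, -0.37 over 42.3 Mb at Igf1r and -0.35 over 36.4 Mb at Fgfr2. Igf1r followed its flanks closely, with differences between -0.07 (tumour 11, as labelled) and 0.10 (tumour 9) and a mean difference of 0.02 (95% interval from -0.02 to 0.06, adjusted limma p = 0.661). Against liver its mean was -0.11 (SD 0.14, n = 11), below 0 in 9 of 11 tumours, with a 95% interval from -0.20 to -0.02, a limma p of 0.0252 and an adjusted p of 0.147. The exact sign-flip permutation p was 0.0225 (adjusted over all genes 0.152), or 0.0654 with tumour 11 turned.

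Fgfr2 averaged -0.13 (SD 0.26, n = 11) and lay below 0 in 7 of 11 tumours, with a 95% interval from -0.28 to 0.01 and an adjusted limma p of 0.255. It lay at the 86.4th percentile for the shared probe pattern, and its extreme values in tumours 9 and 11 were 0.36 and -0.52 against flanks near 0. That percentile is no independent check, since the pattern was taken from the same values. Its value in tumour 2 was -0.23 without the spots with a deposited log ratio of 0. With the pattern subtracted Fgfr2 was at or below -0.0054 in each of the 11 tumours, and limma called it lower, with a mean of -0.19 and an adjusted p of 0.00639. In that setting 14.0% of all genes were called in either direction, and 4.9% of all genes were called lower. With tumour 11 turned the mean was -0.04 (adjusted limma p = 0.739). The call of Fgfr2 thus depended on how this pattern was treated.

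Kit and Pdgfra were not covered by any call. Kit, the receptor of stem cell factor and a marker of luminal progenitors, and Pdgfra, a PDGF receptor of mesenchymal cells, lie 0.391 Mb apart on chromosome 5. The other 6 genes of this cluster, among them Kdr, were not inside a call either, which makes 0 of 88 pairs beside 13.2% of the pairs of all genes. The genes of the cluster are neighbours, and Kit and Pdgfra shared 1 segment in every tumour. The 88 pairs are therefore readings of 1 region and not separate results. Other receptors of chromosome 5, such as Flt1, Flt3 and Fgfr3, lay inside no call either. Those 3 were named after their values were seen. Pdgfra read -0.21 in tumour 9, 0.11 in tumour 7 and between -0.10 and 0.05 in the other 9 tumours, with a median of -0.06. Its mean was -0.04 (SD 0.09, n = 11; adjusted limma p = 0.513).

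Kit had values of 0.40 in tumour 7, 0.24 in tumour 9, 0.13 in tumour 11 and 0.10 in tumour 4, all on slide 2, and between -0.05 and 0.06 in the other 7 tumours. Against its flanks Kit stood at 0.33 in tumour 9, 0.28 in tumour 7, 0.13 in tumour 4 and 0.12 in tumour 11, and between -0.09 and 0.07 in the tumours of the other slides. In the labelled direction slide 2 did not overlap the other slides, with slide means of 0.21 on slide 2, -0.01 on slide 1 and 0.01 on slide 3. With tumour 11 turned it did, since tumour 11 then read -0.12, below every array of slides 1 and 3, and the mean of slide 2 was 0.16. The mean against flanks was 0.08 (SD 0.13, n = 11; adjusted limma p = 0.317), 0.06 with tumour 11 turned and 0.05 with the shared pattern subtracted. The part of the slide in these values was not tested, and it cannot be told apart from that of the software version that only slide 2 had. The Kit probes did not move alike, and the ones with the highest and lowest means over tumours in the labelled direction (0.32 and -0.12), at chr5:76044748-76044807 and chr5:76023587-76023646, are these:

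Kit highest probe: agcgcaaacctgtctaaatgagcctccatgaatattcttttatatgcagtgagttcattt
Kit lowest probe: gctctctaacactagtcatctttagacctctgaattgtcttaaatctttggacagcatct

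The highest probe read 0.58, 0.71, 0.47 and 0.70 in tumours 4, 7, 9 and 11 and between -0.18 and 0.39 elsewhere. With tumour 11 turned its mean was 0.20, below the 0.24 of the last Kit probe, and the lowest mean was that of the third probe (-0.28), so the ranks of the probes rest on the direction of that array. The lowest probe read between -0.13 and 0.08 on slide 2 and between -0.27 and -0.01 elsewhere. Pdgfra stood below its flanks in 9 of 11 tumours, lowest in tumour 9 (-0.13) and highest in tumour 8 (0.04), with a mean of -0.05 (SD 0.05, n = 11; limma p = 0.0181, adjusted p = 0.210), beside 16.0% of all genes with an unadjusted p below 0.05 against their flanks. With slide as a random block the adjusted limma p was 0.0310, but the mean was under the size of 0.1 required for a call, and the block called 4.93% of all genes. The first Pdgfra probe had a mean of -0.38 over the tumours and the other 5 had means between -0.09 and 0.21, and the mean difference was -0.03 with the median over probes and -0.04 with tumour 11 turned.

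**Figure D4:**
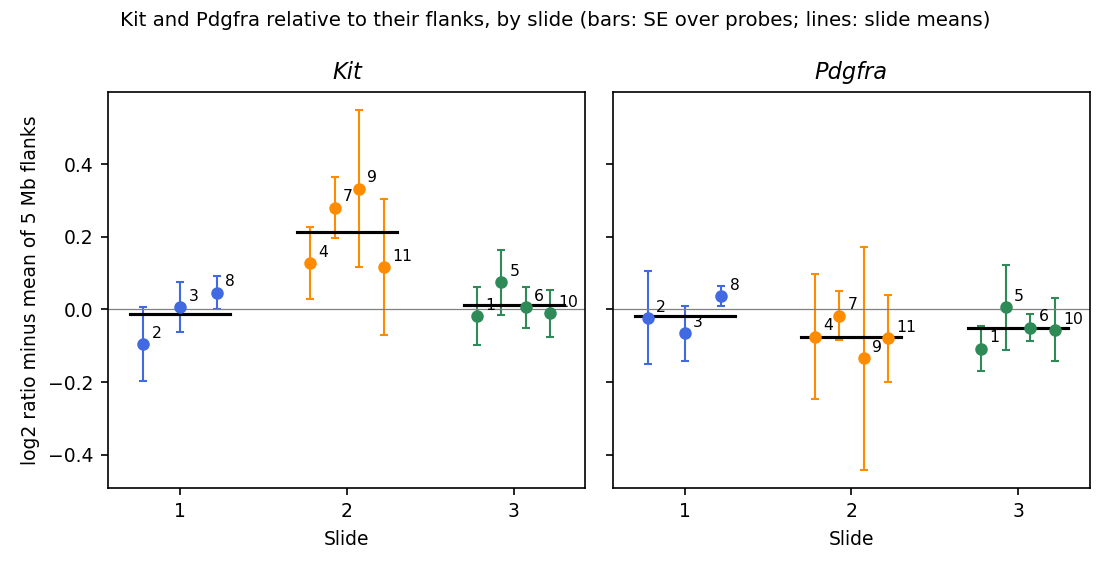
Log2 ratio of Kit (left) and Pdgfra (right) minus the mean of their 5 Mb flanks, for each tumour (numbered points) by slide, with bars for the SE over the probes of the gene and black lines for slide means. In the labelled direction the 4 arrays of slide 2 lie between 0.12 and 0.33 for Kit, above all arrays of slides 1 and 3, but tumour 11 would lie at -0.12 if turned. The slides overlap for Pdgfra.

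Set beside Met, the 9 receptors had medians near 0 in the tumours with the amplification. Each array was centred on its own median, which draws such medians towards 0 in any tumour. The tumours with the amplification were recognised from the same arrays, so they are described singly and not compared as a group. In tumour 8, where Met read 5.30, the receptors ranged from -0.38 (Egfr) to 0.39 (Erbb2) with a median of 0.05. In tumour 6, with Met at 3.38, they ranged from -0.30 (Fgfr2) to 0.21 (Erbb2) with a median of -0.02. In tumour 3, with Met at 3.02, they ranged from -0.24 (Fgfr2) to 0.22 (Fgfr1) with a median of -0.02. In tumour 7, with Met at 2.04, they ranged from -0.26 (Fgfr2) to 0.44 (Fgfr1) with a median of 0.10. The tumours without it had medians from -0.06 in tumour 11 (0.06 if turned) to 0.10 in tumour 9, with -0.03 in tumour 2. Tumour 2, where Met lay in a long gain and read 0.38, had Fgfr1 at 0.49, the highest value of any receptor inside a call.

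**Figure D5:**
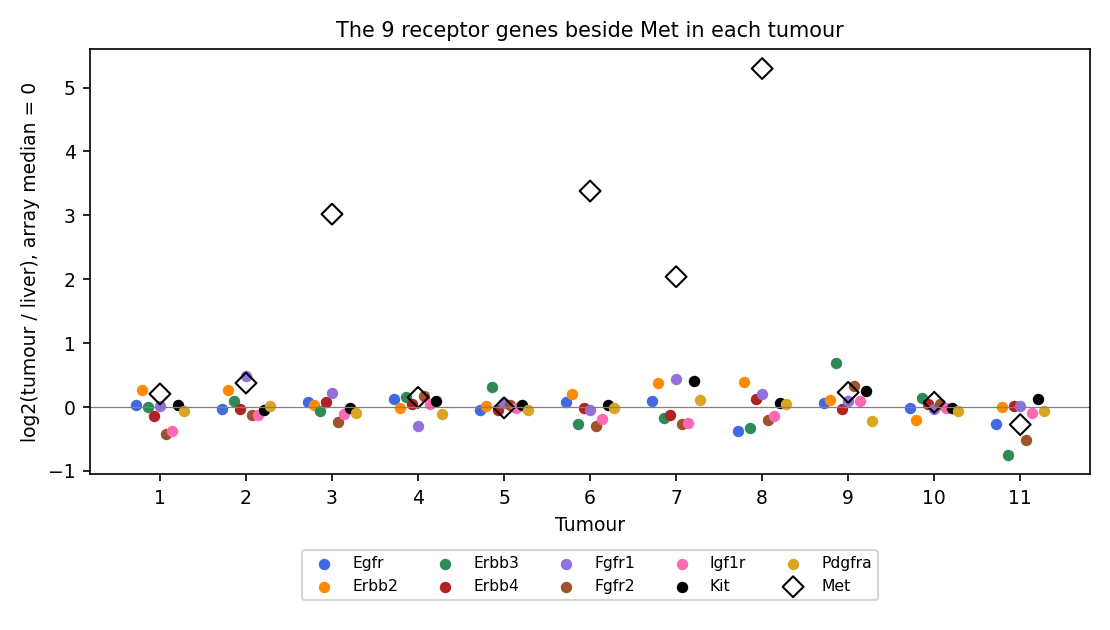
Log2 ratio of tumour over liver of the 9 receptor genes (coloured points) and of Met (black diamonds) in each tumour. Met stands at 3.02, 3.38, 2.04 and 5.30 in tumours 3, 6, 7 and 8, and each of the 99 receptor values lies between -0.75 and 0.69.

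Many larger values of the receptors lay outside calls. Of the 99 pairs 29 had a value of at least 0.2 above or below 0, of which 12 lay inside a call of the same sign and 7 came from the noisy arrays of tumours 9 and 11. Kit in tumour 7, Erbb2 in tumours 1, 6, 7 and 10, Erbb3 in tumours 5 and 6, Fgfr2 in tumours 3 and 6 and Fgfr1 in tumour 8 account for the rest.

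The wider receptor system was read from lists chosen by family. Of 48 other receptor tyrosine kinases 46 are on the array and 31 have at least 3 probes. Limma called 0 of the 31 against liver, 5 had an unadjusted p below 0.05, the exact permutation test called 0, and the median mean was -0.0045. Of 27 adaptors and feedback regulators, such as Grb2, Gab1 and Spry2, 15 could be tested, limma called 0, 2 had an unadjusted p below 0.05, and the median was -0.01. Of 27 growth factor ligands 16 could be tested and limma called 2 higher and 0 lower, 6 had an unadjusted p below 0.05, and the median was 0.0037, beside 4.59% of all genes called higher, 2.3% called lower and 23.0% at an unadjusted p below 0.05.

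The called ligands were Fgf2, which binds the FGF receptors, and Pdgfc, which binds Pdgfra. Fgf2 averaged 0.24 (SD 0.20, n = 11; adjusted limma p = 0.0243), was above 0 in 9 of 11 tumours, and lay inside gains in tumours 1, 2, 3 and 4. In tumour 3 that gain was focal, with a mean of 0.61 (7.63 Mb, chr3:35981649-43612447), which makes Fgf2 the only gene of these lists in a focal segment. Pdgfc averaged 0.19 (SD 0.19, n = 11; adjusted limma p = 0.0426), was above 0 in 10 of 11 tumours, and lay inside gains in tumours 1, 2 and 4. Both lie on chromosome 3, as does Pik3ca (mean 0.26, adjusted limma p = 0.0219), and against their flanks they averaged 0.02 and -0.0069 (adjusted limma p = 0.685 and 0.899).

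The genes whose values over the 11 tumours were most like those of a receptor were sought on other chromosomes. For Egfr they were 4732418C07Rik (r = 0.95) and Kcnh7 (0.94), for Erbb2 Qpct (0.92) and Sos1 (0.91), and for Erbb3 Kif3a and A430084P05Rik (0.97 each). For Fgfr1 they were Gatsl2 (0.94) and Gtf2i (0.93, both on chromosome 5), for Fgfr2 Rab11fip5 (0.96) and Ttc8 (0.95), for Kit Bcas1 (0.92) and BC147760 (0.90), for Pdgfra Hrasls5 (0.92) and Scrn1 (0.89), and for Erbb4 ENSMUST00000098226 (0.93) and ENSMUST00000119477 (0.89). These are the highest among genes of other chromosomes, over 11 arrays that share noise and the probe pattern, so their height is a description. Among the 20 most similar genes on any chromosome, 20 were on the receptor's own chromosome for Igf1r, 19 for Fgfr2, 13 for Fgfr1 and 11 for Erbb2, but 6 for Kit and Pdgfra, 3 for Egfr, 2 for Erbb4 and 1 for Erbb3.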

How the data were processed

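Copy number was measured on Agilent 2-colour arrays, 1 per animal, and per the labels the tumour was labelled with Cy5 (red) and its liver with Cy3 (green). The submitters' processing notes name Agilent Feature Extraction 10.5.1.1 and Partek. Per the file headers, the 4 arrays of slide 2 were read with version 11.0.1.1, the others with 10.5.1.1, and positions are those of mm9. The deposited scanner files hold, per spot, processed intensities of both channels, background-subtracted and dye-normalized by the authors' software. The authors' deposited value table holds log2 ratios, which follow from the deposited log10 ratios of the scanner files.

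For each of 170305 probes, log2 ratios of processed red to green signal were averaged over spots, outliers left out, and centred on the array median. A gene value is the mean over its probes. Flanks are the probes within 5 Mb on both sides. Segments came from optimal partitioning (minimum 5 probes per segment, penalty factor 2 on the noise variance and log probe number, single outlying probes held to 4 SD around an 11-probe running median). A gene was inside a call if the middle of its probes was. Genes with at least 3 probes were tested against 0 over the 11 tumours with limma 3.58.1 (two-sided, Benjamini-Hochberg over all genes) in R 4.3.3, and with exact two-sided sign-flip permutations. Erbb2 was tested in a second fit with at least 2 probes. Other steps used numba 0.67.0, numpy 2.4.6 and pandas 2.3.3 under Python 3.11.15. Segmentation, the flank means, limma and the sign-flip test were run on simulated data. The other steps, among them the removal of the shared probe pattern, were not. The planned normexp correction on mean signals (offset 50) was run on spot medians in all arrays instead. The number of arrays limits the precision. With 1 array per animal, p-values measure a spread that joins differences between animals with the noise of each array. Every tumour carried the same dye, and a dye effect common to the arrays cannot be told apart from a change.

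The genes and lists were chosen with earlier results of these data known. Named are the 9 receptors, Met, Pik3ca, list genes called by limma or in a focal segment, and the 2 genes on other chromosomes most similar to each receptor, of which those for Igf1r are not reported here. Neighbours were named for their position. Alternatives were the background correction, centring, probe summary, dim spots, the authors' table, tumour 11 turned, slide as a block, flank size, thresholds, penalty, each tumour left out, a fit on GC content and removal of the shared probe pattern, the last 2 chosen after seeing the data.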

Additional observations from a re-analysis of the deposited data

How the results depend on the processing

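Of 378 comparisons of a receptor's mean under another setting, 352 kept their direction and side of the threshold and 25 changed sign, none of them called in either setting. Limma called 0 receptors against liver and against flanks in each setting run, except with the shared probe pattern removed, where it called 1, Fgfr2 (-0.19). Leaving out each tumour in turn gave 0 called receptors throughout, 3 to 5 gained pairs (3 without tumour 2) and 6 to 9 lost pairs. At a segment threshold of 0.3 there were 3 gained pairs, and at 0.15 there were 14 lost pairs. Other settings gave 5 to 7 gained and 7 to 10 lost pairs.

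The sign changes were these. Against liver they were Egfr with tumour 11 turned (0.0262), Erbb3 with tumour 11 turned (0.12), and Erbb4 with normexp (0.0026) and with the pattern removed (0.0025). Against flanks they were Egfr with normexp (-0.0080), as a median over probes (-6.97e-05), without dim spots (-0.0024), with flanks of 2 Mb (-0.0136) and with the pattern removed (-0.0255), Erbb3 with the pattern removed (-0.0486) and Fgfr2 with tumour 11 turned (0.0827). With single tumours left out, the means ran against liver from -0.0379 to 0.0131 for Egfr, from -0.0859 to 0.0579 for Erbb3 and from -0.0194 to 0.0079 for Erbb4, and against flanks from -0.0134 to 0.0399 for Egfr and from -0.0481 to 0.0393 for Fgfr2. The cause of these changes was not tested. No paired analysis was possible because there is 1 group and each array already pairs a tumour with its liver. Noise was highest in tumours 9 and 11, where a short segment needs a larger mean to be found, so the lack of calls there does not show that the receptors were unaltered.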
